A study of Homo sapiens with 12 samples.

Results

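The fatty acid desaturases and elongases are 10 genes listed by symbol: the desaturases SCD, SCD5, FADS1, FADS2 and FADS3 and the elongases ELOVL1, ELOVL4, ELOVL5, ELOVL6 and ELOVL7. Their levels were read from probe sets annotated to 1 gene symbol, and where a gene had several, the one whose mean over the 12 arrays was highest stood for it. By this rule 8 of the 10 genes had a probe set, 21 probe sets in all, and 7 of them passed the filter on low values, out of 13130 tested genes in the series. The probe sets annotated to FADS1 and to ELOVL1 each carry the symbol of a microRNA gene as well, so they were assigned to neither gene and are described by their identifiers. ELOVL4 was measured but lay below the filter.

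The cells were Sk-hep1, an established human liver cancer line from ascites fluid that the labels class as an endothelial adenocarcinoma. Affymetrix expression arrays, hybridised with biotin-labelled cRNA from total RNA, were made in 4 groups of 3: HFM, a high-fat medium made with DMEM/F12, and GM, the growth medium made with DMEM, for 12 hours, and the same media for 24 hours. The line had been kept in DMEM with 10% fetal bovine serum. The sources used here do not say which fat HFM held. Its basal medium also differed from that of GM, so fat and basal medium cannot be told apart. Since all arrays come from a single line and nothing says that the replicates were separate cultures, the p-values cover only the spread between these arrays, and that spread may be technical.

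Fatty acids made in the cell or taken up are remodelled in the endoplasmic reticulum. Desaturases insert double bonds with electrons passed on by cytochrome carriers, and elongases start a cycle of reactions that adds carbon units to the chain. SCD turns saturated into monounsaturated fatty acids, and in liver it is a well-known target of the lipogenic factors SREBP, LXR and ChREBP. FADS1 and FADS2 build polyunsaturated fatty acids from dietary precursors, and polyunsaturated fatty acids in turn are known to lower the transcription of SCD, FADS1 and FADS2 in liver cells.

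Promoter windows are shown for 4 genes whose levels the results turn on: SCD, ELOVL6 and ELOVL7, which were higher in HFM at both times, and FADS3, which changed direction between times. Each window runs from 250 bases before to 50 bases after a RefSeq start site of the GRCh38.p14 build, 5′ to 3′ on the strand of the gene. Capitals mark CCAAT boxes, known as the binding motif of NF-Y, written CCAAT on the strand of the gene or ATTGG where the box lies on the opposite strand.

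SCD, chr10:100346983-100347282, plus strand: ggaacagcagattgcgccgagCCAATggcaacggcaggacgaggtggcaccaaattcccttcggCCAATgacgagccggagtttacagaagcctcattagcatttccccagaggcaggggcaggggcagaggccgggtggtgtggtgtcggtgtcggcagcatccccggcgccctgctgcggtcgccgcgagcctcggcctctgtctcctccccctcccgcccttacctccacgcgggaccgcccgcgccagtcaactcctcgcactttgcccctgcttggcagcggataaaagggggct
ELOVL6, chr4:110198566-110198865, minus strand: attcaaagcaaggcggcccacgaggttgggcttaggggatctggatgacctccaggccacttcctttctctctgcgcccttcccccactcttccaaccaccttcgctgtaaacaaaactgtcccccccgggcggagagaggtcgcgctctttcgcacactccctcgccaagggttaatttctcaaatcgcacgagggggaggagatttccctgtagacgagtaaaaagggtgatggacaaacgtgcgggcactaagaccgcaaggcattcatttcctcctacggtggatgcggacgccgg
ELOVL7, chr5:60844220-60844519, minus strand: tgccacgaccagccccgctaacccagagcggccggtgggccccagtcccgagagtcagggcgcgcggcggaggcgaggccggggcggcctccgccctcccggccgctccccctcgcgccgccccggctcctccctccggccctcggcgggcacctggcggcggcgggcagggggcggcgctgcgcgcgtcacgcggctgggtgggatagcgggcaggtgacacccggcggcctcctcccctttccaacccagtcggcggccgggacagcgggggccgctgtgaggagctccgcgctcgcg
FADS3, chr11:61891496-61891795, minus strand: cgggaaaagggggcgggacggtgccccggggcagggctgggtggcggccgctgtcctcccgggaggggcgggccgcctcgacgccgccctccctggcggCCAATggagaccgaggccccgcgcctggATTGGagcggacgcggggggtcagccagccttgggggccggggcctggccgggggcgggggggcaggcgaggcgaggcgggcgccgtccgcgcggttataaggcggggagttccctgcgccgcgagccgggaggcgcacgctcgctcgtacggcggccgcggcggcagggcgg

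The SCD window held 2 CCAAT boxes, with first bases at positions -229 and -186 from the start site, and the FADS3 window also held 2. Neither the ELOVL6 nor the ELOVL7 window held one. RefSeq windows were found for all 10 listed genes, 11 windows in all since FADS2 had 2. A CCAAT box stood in 7 of the 11 windows, each of a different gene. Among all 35116 windows of this length, 34.6% held the box on either strand. The GC box GGGCGG, searched on both strands, stood in 9 of the 11 windows, against 45% of all windows. The E-box CACGTG stood in 2 of the 11 windows, those of ELOVL4 and ELOVL5, against 7.26% of all windows. The sterol regulatory element TCACCCCAC on either strand stood in 0 of the 11 windows and in 0.43% of all windows. A match describes the letters of the window, and no match says only that these letters are not in it.

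Levels are GCRMA values on the log2 scale as deposited by the authors. A gene was called when its Benjamini-Hochberg adjusted p in limma was under 0.05 over the 13130 genes tested, and changes are given with their standard error, at 3 arrays a group. HFM 12-hour replicate 1 stood apart: its values differed from those of the other HFM arrays at 12 hours by a root mean square of 0.295 and 0.304 on the log2 scale, against 0.106 to 0.158 for the other 10 pairs within groups. The hybridisation controls, spiked in after labelling, were high on this array and the 3 GM arrays at 12 hours and low on the other 8. For ACTB, a control of RNA integrity, the level of the 3′ probe set minus that of the 5′ one was 0.69 to 0.92 in HFM and 0.86 to 0.91 in GM at 12 hours, and 1.53 to 1.64 in HFM and 1.02 to 1.12 in GM at 24 hours. Of the endothelial markers, 5 of 13 passed the filter. These were ROBO4, at a mean of 6.71 over the 12 arrays, and NOS3, ICAM2, PECAM1 and ESAM, at 4.08 to 4.47. CDH5, VWF and KDR, which define endothelial cells, were among those that did not, although the labels call the cells endothelial. ALB and APOB, which define hepatocytes, and PTPRC, which defines leukocytes, did not pass either. In all, 4 of 11 hepatocyte, 3 of 7 leukocyte and 7 of 8 mesenchymal markers passed, VIM and FN1 among the last. The hepatocyte markers that passed were TTR, CYP3A4, SERPINA1 and TF, at means of 4.192 to 5.465. The leukocyte markers that passed were CD79A, CORO1A and CD14, at 4.727 to 6.083. Over all measured markers of a list, passed or not, the mean level of the 13 endothelial markers was 3.38 to 3.44 in HFM and 3.79 to 3.82 in GM at 12 hours, and 3.30 to 3.44 in HFM and 3.46 to 3.51 in GM at 24 hours. The 7 leukocyte markers averaged 3.86 to 3.94 in HFM and 4.21 to 4.26 in GM at 12 hours, and 3.65 to 3.70 in HFM and 3.72 to 3.81 in GM at 24 hours. The 10 measured hepatocyte markers averaged 3.69 to 3.76 in HFM and 3.83 to 3.87 in GM at 12 hours, but 3.71 to 3.81 in HFM and 3.65 to 3.69 in GM at 24 hours. The 8 mesenchymal markers averaged 7.09 to 7.19 in HFM and 7.20 to 7.25 in GM at 12 hours, and overlapped between media at 24 hours. The part that array quality or marker levels have in the results below was not tested.

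In HFM at 12 hours SCD was about 2-fold higher than in GM, the elongases ELOVL6 and ELOVL7 were about 1.4-fold and 1.5-fold higher, the main probe sets of SCD5 and ELOVL5 rose slightly, and FADS3 fell. Of the 7 members tested, each by its main probe set, 5 rose, 1 fell and 1, FADS2, did not pass the test. Another SCD5 probe set fell at this time, as given with the other probe sets, so the count holds for main probe sets only. Calls are the rule in this comparison: 61.9% of all tested genes were called, 28.9% as higher and 33% as lower, so 6 calls among 7 members are not far from the share over all genes. Arrays of HFM and GM did not overlap for 6 of the 7 members, against 63.6% of all genes. The median change of the 7 members was 0.25, beside -0.07 over all tested genes. In RNA from bulk cultures, a change in the share of some cells and a change in RNA per cell cannot be told apart.

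SCD had levels of 9.58, 9.52 and 9.49 in HFM at 12 hours, against 8.56, 8.55 and 8.53 in GM. Every HFM array stood above every GM array by far more than the spread within either group. The mean was 9.53 ± 0.04 (SD, n = 3) in HFM and 8.55 ± 0.01 in GM, a rise of 0.98 ± 0.04 (SE; 95% interval 0.89 to 1.08; limma adjusted p = 3.1e-08), and 97.7% of tested genes changed less in either direction. A rise of 2-fold or more was called in 1.94% of genes, and SCD, at 1.98-fold, stood just under that bound. SCD5, the other human enzyme of this kind, had 9.13, 9.20 and 9.09 in HFM, against 8.93, 8.84 and 8.89 in GM. These ranges did not overlap either, but the rise was 0.25 ± 0.05 (adjusted p = 0.0013).

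ELOVL6 lengthens palmitate to stearate, the preferred substrate of SCD. Its levels at 12 hours were 7.80, 7.73 and 7.75 in HFM, against 7.27, 7.20 and 7.28 in GM, a rise of 0.51 ± 0.05 (adjusted p = 8.9e-06). ELOVL7, an elongase of long saturated acyl chains, had 9.03, 9.02 and 9.01 in HFM, against 8.47, 8.50 and 8.42 in GM, a rise of 0.56 ± 0.05 (adjusted p = 3.3e-06). For both genes all HFM arrays were above all GM arrays. ELOVL5, which lengthens polyunsaturated fatty acids, had 11.15, 11.24 and 11.27 in HFM, against 11.09, 11.02 and 11.04 in GM. Its groups were close without overlapping, and the rise was 0.17 ± 0.05 (adjusted p = 0.0095).

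FADS3, a desaturase known to act on sphingoid bases, had 8.09, 7.81 and 7.79 in HFM at 12 hours, against 8.24, 8.20 and 8.27 in GM. The HFM array nearest to GM was replicate 1, the one that stood apart. FADS3 fell by 0.34 (SE 0.08; adjusted p = 0.0031), and by 0.43 (adjusted p = 5.1e-05) without that array. FADS2, which catalyses the first desaturation of the essential fatty acids, had 5.30, 4.94 and 4.91 in HFM, against 5.36, 5.00 and 5.05 in GM. Its groups overlapped, and the change was -0.09 with a 95% interval of -0.37 to 0.19 (adjusted p = 0.57), which leaves room for a change of either sign. Without HFM replicate 1 the other changes were 0.96 for SCD, 0.26 for SCD5, 0.21 for ELOVL5, 0.49 for ELOVL6 and 0.56 for ELOVL7, all still called, and -0.21 for FADS2 (adjusted p = 0.14).

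The smaller changes depended on the processing. When the class of hybridisation control level entered the fit, FADS3 stood at -0.14 and ELOVL5 at 0.11. That fit compares HFM with GM at 12 hours through HFM replicate 1 alone, the array that stood apart. It therefore cannot decide whether these changes depend on the control level. As the mean of all probe sets of a gene, SCD rose by 0.46, SCD5 stood at 0.04 (limma adjusted p = 0.49) and ELOVL5 at 0.07 (adjusted p = 0.27). ELOVL5 also missed the threshold with each array centred on its median (adjusted p = 0.051) or with only the 12-hour groups in the fit (adjusted p = 0.053). For members and list genes, centring used the median of an array over the tested genes, not over all its probe sets.

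**Figure D1:**
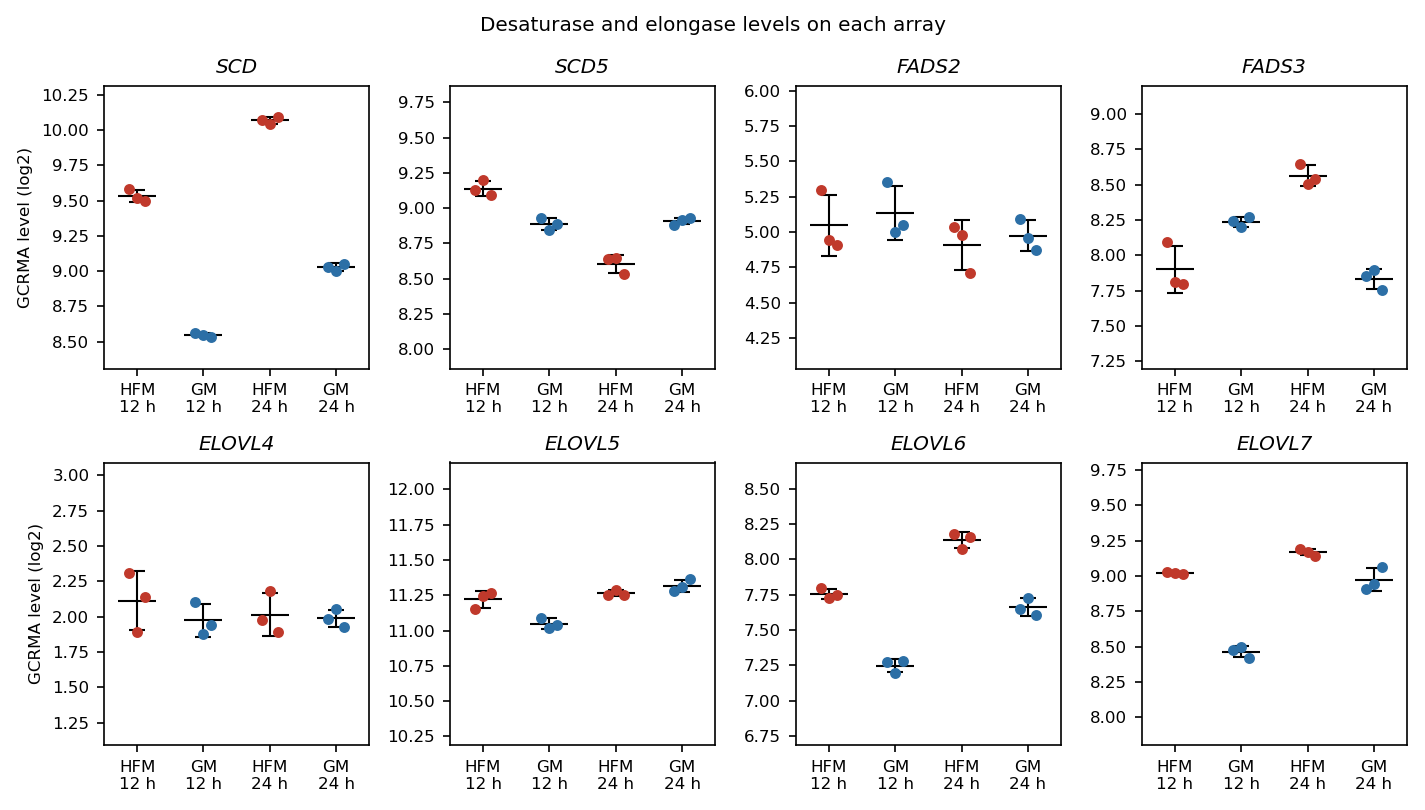
GCRMA level (log2) of the 8 named members on each array, HFM in red and GM in blue, with the mean as a bar and the SD as whiskers; every panel spans 2 log2 units. SCD lies at 10.04 to 10.09 on the HFM arrays at 24 hours and at 8.53 to 8.56 on the GM arrays at 12 hours, while FADS3 lies below GM at 12 hours and above GM at 24 hours in HFM.

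In HFM at 24 hours SCD was again about 2-fold higher than in GM, FADS3 was about 1.7-fold higher, ELOVL6 and ELOVL7 were higher, and the main probe set of SCD5 was lower. Of the 7 members tested by their main probe sets, 4 rose, 1 fell and 2, FADS2 and ELOVL5, did not pass the test. Over all genes 58.1% were called, 20.6% as higher and 37.5% as lower. Arrays of the 2 media did not overlap for 5 of the 7 members, against 68.7% of all genes. The median change was 0.19 among the members and -0.08 among all tested genes. As given above, the 3′ to 5′ difference of ACTB was larger in HFM than in GM at this time, without overlap.

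SCD had 10.07, 10.04 and 10.09 in HFM at 24 hours, against 9.03, 9.00 and 9.05 in GM. The HFM arrays again stood about 1 log2 unit above the GM arrays. The rise was 1.04 ± 0.04 (SE; 95% interval 0.94 to 1.14; adjusted p = 3.3e-09), which is 2.06-fold, and 93.2% of genes changed less. A called rise of at least 2-fold was seen in 2.28% of genes.

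FADS3 had 8.65, 8.51 and 8.54 in HFM, against 7.85, 7.89 and 7.75 in GM. All HFM arrays were higher, the reverse of their order at 12 hours, and the rise was 0.73 ± 0.08 (adjusted p = 6.9e-06). ELOVL6 had 8.18, 8.07 and 8.16 in HFM, against 7.65, 7.73 and 7.61 in GM, a rise of 0.48 ± 0.05 (adjusted p = 9.2e-06). ELOVL7 had 9.19, 9.17 and 9.14 in HFM, against 8.91, 8.94 and 9.07 in GM. The ELOVL7 ranges came close without overlapping, and the rise was 0.19 ± 0.05 (adjusted p = 0.0061).

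SCD5 had 8.64, 8.65 and 8.53 in HFM at 24 hours, against 8.88, 8.91 and 8.93 in GM. By this probe set it fell by 0.30 (SE 0.05; adjusted p = 0.00028), whereas it was higher in HFM at 12 hours. ELOVL5 had 11.25, 11.29 and 11.25 in HFM, against 11.28, 11.31 and 11.36 in GM, and FADS2 had 5.04, 4.98 and 4.71 in HFM, against 5.09, 4.96 and 4.87 in GM. Both genes overlapped between media. Their changes were -0.05 (95% interval -0.16 to 0.06; adjusted p = 0.41) for ELOVL5 and -0.07 (-0.34 to 0.21; adjusted p = 0.69) for FADS2. The SCD5 call did not hold with each array centred on its median over the tested genes, where the change was -0.12 (adjusted p = 0.067).

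**Figure D2:**
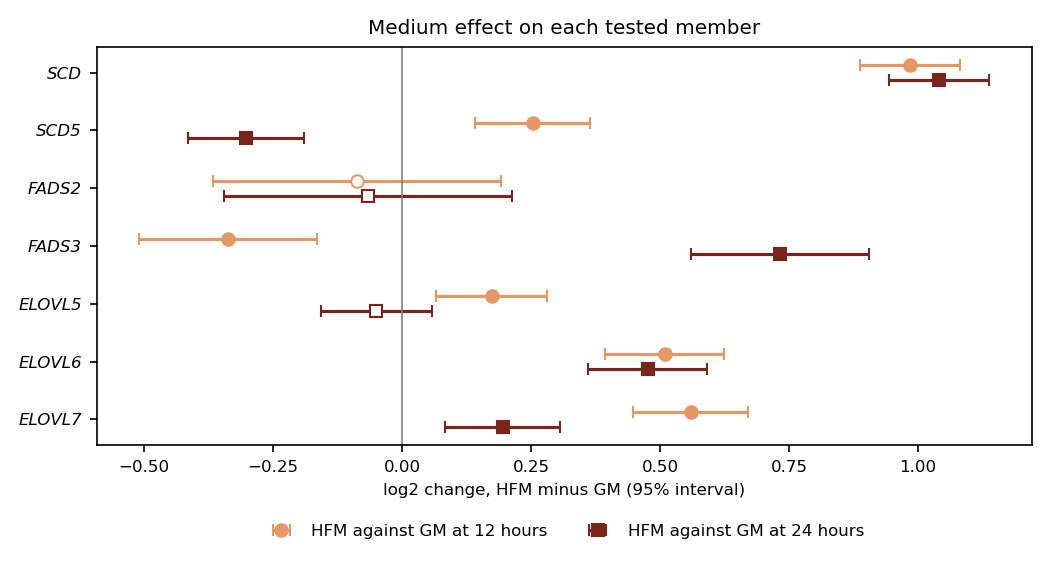
Change in log2 level, HFM minus GM, of the 7 tested members at 12 hours (light circles) and 24 hours (dark squares), with 95% intervals from limma; open symbols did not pass the test. SCD lies at 0.98 and 1.04, while FADS3 and SCD5 lie on opposite sides of 0 at the 2 times.

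The difference of the medium effect between 24 and 12 hours was tested as an interaction. FADS3 had the largest difference among the 7 members, 1.07 ± 0.11 (adjusted p = 9.3e-06), since its effect was 0.73 at 24 hours and -0.34 at 12 hours. SCD5 differed by -0.56 ± 0.07 (adjusted p = 5.5e-05), ELOVL7 by -0.36 ± 0.07 (adjusted p = 0.0013) and ELOVL5 by -0.22 ± 0.07 (adjusted p = 0.018). By the main probe sets the effect on these 3 genes was thus lower at 24 than at 12 hours. Other probe sets of SCD5 and ELOVL5 differed in the opposite direction: 224018_s_at of SCD5 by 0.59 (adjusted p = 0.00044) and 215082_at of ELOVL5 by 0.84 (adjusted p = 0.00084). No difference passed the test for SCD at 0.06 (95% interval -0.08 to 0.19; adjusted p = 0.47), ELOVL6 at -0.03 (-0.20 to 0.13; adjusted p = 0.73) or FADS2 at 0.02 (-0.37 to 0.42; adjusted p = 0.93). With probe sets averaged per gene the SCD difference was 0.63 and was called (adjusted p = 0.0002). The ELOVL6 probe set 227491_at, which passed the filter through its HFM arrays alone, differed by -0.53 (adjusted p = 0.038). Of all tested genes, 52.8% were called in this test, 19.4% as higher and 33.4% as lower, beside 1 higher and 3 lower of these 7 members. Centred arrays turned both splits, to 5068 genes higher and 3134 lower, against 2551 and 4380 as deposited, and to 3 members higher and 1 lower. With each array centred on its median, the difference was 0.26 for SCD (adjusted p = 0.0023) and 0.17 for ELOVL6 (adjusted p = 0.043), both then called, and -0.16 for ELOVL7 (adjusted p = 0.093) and -0.02 for ELOVL5 (adjusted p = 0.84), both then not called.

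Most members also changed with time in each medium. The GM arrays at 12 hours serve as the reference both for the change in GM and for the medium effect at 12 hours. In GM, 4 of the 7 members were higher at 24 than at 12 hours, 1 was lower and 2 did not pass the test, against 69.9% of all genes called, 29.4% as higher and 40.5% as lower. Arrays of the 2 times did not overlap for 5 members, against 78.9% of genes. ELOVL7 rose by 0.51 ± 0.05 (adjusted p = 4.4e-06), SCD by 0.48 ± 0.04 (adjusted p = 2.3e-06), ELOVL6 by 0.41 ± 0.05 (adjusted p = 2.9e-05) and ELOVL5 by 0.27 ± 0.05 (adjusted p = 0.00044). FADS3 fell by 0.41 (SE 0.08; adjusted p = 0.00068). SCD5 stood at 0.02 (adjusted p = 0.7) and FADS2 at -0.16 (adjusted p = 0.27). In the mean over all probe sets of a gene, SCD stood at 0.09 (limma adjusted p = 0.29) and ELOVL5 at -0.01 (adjusted p = 0.85). Once the class of hybridisation controls was in the fit FADS3 stood at -0.12. The size of that adjustment rests on how HFM 12-hour replicate 1 differs from the other HFM arrays at 12 hours.

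In HFM, by main probe sets, 4 of the 7 were higher at 24 than at 12 hours, 1 was lower and 2 did not pass. Over all genes 63.1% were called, 20.1% as higher and 43.1% as lower. That split also depended on the scaling, with 5133 genes higher and 3790 lower in centred arrays and 4047 and 4395 after repeated quantile normalisation, against 2637 and 5653 as deposited. Here too 5 members did not overlap between times, against 65.9% of genes. FADS3 rose by 0.67 ± 0.08 (adjusted p = 1.4e-05), SCD by 0.54 ± 0.04 (adjusted p = 7.3e-07) and ELOVL6 by 0.38 ± 0.05 (adjusted p = 5.5e-05). ELOVL7 rose by 0.15 ± 0.05 (adjusted p = 0.026), a call that was lost without HFM 12-hour replicate 2 or 3 or HFM 24-hour replicate 1 or 2, where the adjusted p lay between 0.054 and 0.074. By its main probe set SCD5 fell by 0.53 (SE 0.05, adjusted p = 2.5e-06). Its other tested probe sets rose with time in HFM, 220232_at by 0.76 (limma adjusted p = 7.6e-06) and 224018_s_at by 0.34 (adjusted p = 0.0012).

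The order of the 4 groups is given here by main probe sets. Those of SCD were all apart: GM at 12 hours was lowest, followed by GM at 24 hours, HFM at 12 hours and HFM at 24 hours. HFM at 12 hours was above GM at 24 hours by 0.50. Of the other SCD probe sets, 211708_s_at had this order of means. For 200831_s_at and 211162_x_at GM at 24 hours was lowest, at 6.22 and 4.99, against 6.40 and 5.14 in GM at 12 hours. ELOVL6 and ELOVL7 had the same order of means as the main SCD probe set. For both, the arrays of HFM at 12 hours and GM at 24 hours overlapped, with means 0.10 and 0.05 apart. For ELOVL5, GM at 12 hours was lowest and GM at 24 hours highest, and HFM at 24 hours overlapped with HFM at 12 hours and with GM at 24 hours. For FADS3, HFM at 24 hours was highest, then GM at 12 hours, and HFM at 12 hours overlapped with GM at 24 hours. The main probe set of SCD5 had its highest level in HFM at 12 hours and its lowest in HFM at 24 hours, and the GM groups overlapped. The other tested probe sets of SCD5, 220232_at and 224018_s_at, were instead highest in HFM at 24 hours, with means of 5.50 and 5.29. All 4 groups of FADS2 overlapped with each other.

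The genes most like SCD over the 12 arrays by Pearson's r, which here mainly follows the 4 group means, were RSRC2 (0.994), CFLAR (0.994), PAXIP1-DT (0.993), DUSP5P1 (0.992) and IGFBP3 (0.992). CFLAR is an inhibitor of death receptor signalling and IGFBP3 a carrier of insulin-like growth factors. Among the members, r with SCD was 0.967 for ELOVL6, 0.893 for ELOVL7, 0.567 for ELOVL5 and 0.414 for FADS3. SCD5, by main probe sets the member with the largest fall at 24 hours, was most like MEIS2 (0.974), EXOSC9 (0.966), GPATCH8 (0.965), NCK1-DT (0.964) and GUCY1B1 (0.963). These values describe 12 arrays of 1 cell line in 4 groups.

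Other probe sets of the same genes were tested as a check, in a fit of all 29787 probe sets that passed the filter, of which 59% were called at 12 hours and 58.2% at 24 hours. The 4 probe sets of SCD all rose at 24 hours, by 0.68 to 1.48, but at 12 hours 200832_s_at and 211708_s_at passed the test, and 211708_s_at rose by 0.50 (adjusted p = 0.0068). Probe sets 200831_s_at, at 0.23 (adjusted p = 0.14), and 211162_x_at, at 0.13 (adjusted p = 0.16), did not. Probe set 211162_x_at had 6.22, 6.10 and 6.16 in HFM and 4.83, 5.07 and 5.07 in GM at 24 hours, and 5.35, 5.20 and 5.25 in HFM and 5.07, 5.17 and 5.18 in GM at 12 hours. By this probe set and 211708_s_at the medium effect was larger at 24 than at 12 hours, by 1.05 (adjusted p = 7.6e-06) and 0.98 (adjusted p = 0.00093), unlike the main probe set. The statement that the SCD effect did not pass the test of a difference between times therefore holds for the main probe set and 200831_s_at, at 0.45 (adjusted p = 0.06).

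SCD5 probe sets disagreed in direction. At 24 hours 224901_at, the main one, fell, while 220232_at rose by 0.58 (adjusted p = 7.7e-05) and 224018_s_at by 0.39 (adjusted p = 0.00051). Probe set 220232_at had 5.34, 5.62 and 5.56 in HFM at 24 hours, against 4.92, 4.92 and 4.93 in GM, so its groups were apart in the opposite order from those of the main probe set. At 12 hours 224018_s_at fell by 0.20 (adjusted p = 0.031), and 220232_at rose by 0.30 (adjusted p = 0.0087). The call of 220232_at was not made with arrays centred on their median over the tested probe sets (0.18, adjusted p = 0.061). That shift is not the same as with centring over the tested genes. A direction for SCD5 as a gene is therefore not given by these data. The other tested probe sets were much dimmer than the main one. Their group means were 4.44 to 5.50 for 220232_at and 4.91 to 5.29 for 224018_s_at, against 8.61 to 9.14 for 224901_at.

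ELOVL5 probe sets differed as well. At 24 hours 215082_at rose by 0.80 (adjusted p = 5.1e-05), with 6.61, 6.66 and 6.57 in HFM and 5.93, 5.88 and 5.62 in GM, and 214153_at rose by 0.31 (adjusted p = 0.032), whereas the main probe set 208788_at did not pass the test. For ELOVL6, 210868_s_at rose by 0.39 (adjusted p = 0.0024) at 12 hours and 0.36 (adjusted p = 0.0032) at 24 hours, beside 0.51 and 0.48 for the main probe set. The third ELOVL6 probe set, 227491_at, had 4.85, 4.36 and 4.18 in HFM and 3.32, 3.18 and 3.15 in GM at 12 hours, and 4.13, 4.35 and 4.25 in HFM and 3.59, 3.54 and 3.44 in GM at 24 hours. It passed the filter of log2 4 through its HFM arrays alone, so its rises of 1.25 and 0.72 lend nothing to the rise of the gene. Both probe sets of FADS3 were called in the same directions: 216080_s_at fell by 0.42 at 12 hours (adjusted p = 0.0031) and rose by 0.50 at 24 hours (adjusted p = 0.00077). ELOVL7 had 1 probe set, and the second probe set of FADS2, at 3.34 to 3.82, did not pass the filter.

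**Figure D3:**
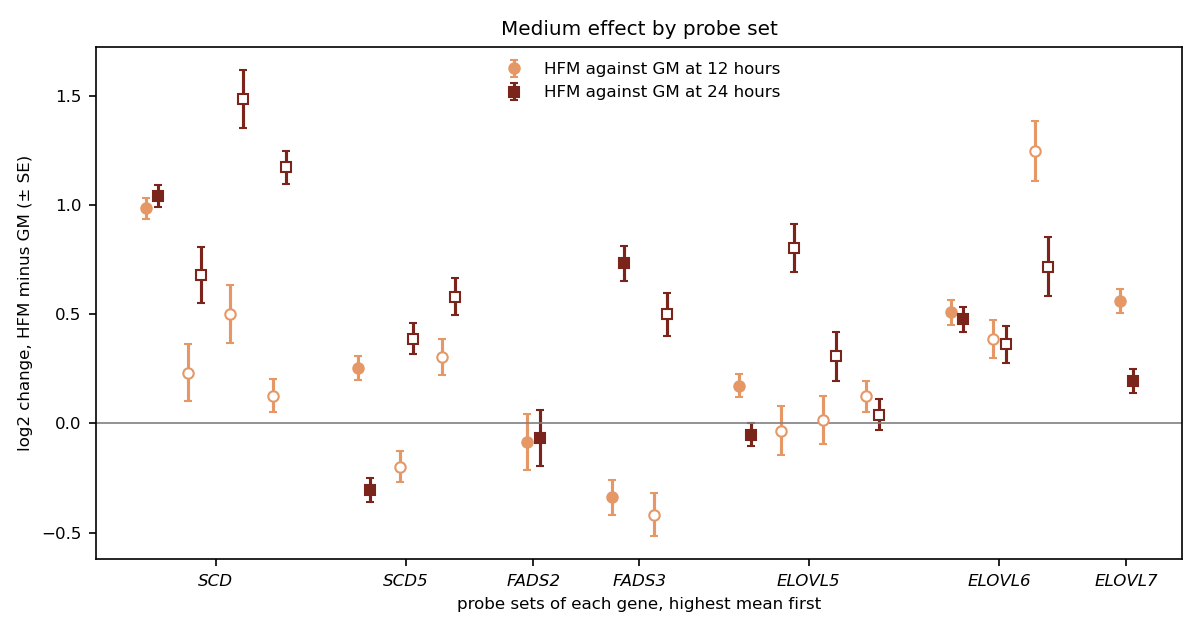
Change in log2 level, HFM minus GM, of each tested probe set of the 7 members at 12 hours (light circles) and 24 hours (dark squares), with standard errors; filled symbols are the probe sets used for the gene. Both probe sets of FADS3 lie below 0 at 12 hours and above 0 at 24 hours, those of ELOVL6 lie above 0 at both times with 227491_at farthest out at 12 hours, and those of SCD5 lie on both sides of 0 at 24 hours.

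ELOVL4, which makes very long chain fatty acids in retina, skin and brain, was at 2.31, 1.89 and 2.14 in HFM and 2.10, 1.88 and 1.94 in GM at 12 hours. At 24 hours it was at 1.97, 2.18 and 1.89 in HFM and 1.98, 2.05 and 1.93 in GM. All 4 groups overlapped, and between 3.83% and 14.7% of the probe sets on an array were lower. It was not tested.

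Probe sets 57163_at and 218028_at are annotated to ELOVL1, an elongase of very long saturated chains, together with MIR6734, and were lower in HFM at both times. Probe set 57163_at had 10.42, 10.21 and 10.15 in HFM, against 10.72, 10.73 and 10.71 in GM at 12 hours, a fall of 0.46 (adjusted p = 0.00014). At 24 hours it had 10.02, 9.98 and 9.97 in HFM, against 10.32, 10.28 and 10.23 in GM, a change of -0.29 (adjusted p = 0.0031). The media did not overlap at either time. Probe set 218028_at changed by -0.41 (adjusted p = 0.0014) at 12 hours and -0.27 (adjusted p = 0.014) at 24 hours.

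Probe sets 208964_s_at, 208963_x_at and 208962_s_at are annotated to FADS1, which makes arachidonic acid, together with MIR1908. All of them fell in HFM at 24 hours, by 0.26 (adjusted p = 0.013), 0.46 (adjusted p = 0.0002) and 0.25 (adjusted p = 0.0041), and none was called at 12 hours, where limma gave adjusted p of 0.62, 0.069 and 0.67. With arrays centred on their median over the tested probe sets, 208962_s_at was called at 12 hours as well, at -0.15 (adjusted p = 0.026). Centring over the tested genes, as used for members, shifts changes by other amounts. Probe set 208963_x_at had 7.45, 7.33 and 7.45 in HFM at 24 hours, against 7.84, 7.84 and 7.95 in GM. Its medium effect was lower at 24 than at 12 hours by -0.64 (adjusted p = 0.00038). These 5 probe sets do not enter any count of members.

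Genes around the desaturases and elongases were taken from lists written with earlier results of these data known. Their counts stand beside 28.9% of all genes called higher and 33% lower at 12 hours, and 20.6% higher and 37.5% lower at 24 hours, and with 4 to 18 genes a list no count is read as particular to it. Each list gene was read from its main probe set, and its other probe sets were not checked. At 24 hours the directions of small changes in these lists depended on the scaling. Centring each array on its median over the tested genes moved the median change of all tested genes to 0.10, against -0.08. Among the partners that complete the elongation cycle, 2 of 4 tested genes rose, 1 fell and 1 did not pass at 12 hours. At 24 hours 0 rose in limma (0 at an unadjusted p under 0.05) and 2 fell, or 2 rose and 1 fell with centred arrays. HACD2, a dehydratase of the cycle, rose by 0.54 (adjusted p = 3.4e-06) at 12 hours and stood at 0.05 (adjusted p = 0.44) at 24 hours. HACD3, a related protein, fell by 0.38 (adjusted p = 3.0e-05) at 24 hours. TECR, the last reductase of the cycle, changed by -0.37 (adjusted p = 0.0015) at 12 and -0.29 (adjusted p = 0.0063) at 24 hours, and HSD17B12, the first reductase, by 0.17 (adjusted p = 0.018) and -0.03 (adjusted p = 0.69). With centred arrays TECR was not called at 24 hours (-0.11, adjusted p = 0.11) and HSD17B12 was higher by 0.15 (adjusted p = 0.006).

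Of the genes that supply electrons to desaturases, 1 of 7 rose and 2 fell at 12 hours. At 24 hours 1 rose and 4 fell, or 3 rose and 1 fell with centred arrays. Over all genes 61.9% were called at 12 hours and 58.1% at 24 hours. CYB5R1, a reductase of the carrier, fell by 0.59 (adjusted p = 2.0e-05) at 12 hours and 0.34 (adjusted p = 0.00094) at 24 hours. CYB5B, a carrier, changed by -0.29 (adjusted p = 0.031) and -0.35 (adjusted p = 0.012), and CYB5RL by -0.44 (adjusted p = 0.0085) at 24 hours. The 24-hour calls of CYB5B and CYB5RL were not made with centred arrays. CYB5A, another carrier, and CYB5R3, another reductase, are named after their values were seen. CYB5A stood at 0.02 (adjusted p = 0.81) at 12 and 0.13 (adjusted p = 0.16) at 24 hours, where centred arrays gave a call (0.305, adjusted p = 0.00053). CYB5R3 stood at -0.02 (adjusted p = 0.77) at 12 hours and rose by 0.22 (adjusted p = 0.004) at 24 hours. Among other lipid desaturases and hydroxylases, 2 of 5 rose and 2 fell at 12 hours, and 2 rose and 1 fell at 24 hours, or 3 rose and 0 fell in limma with centred arrays (0 at an unadjusted p under 0.05). The genes that rose at both times, MSMO1 and SC5D, act in cholesterol synthesis: MSMO1 rose by 1.00 (adjusted p = 1.6e-07) at 12 and 1.23 (adjusted p = 8.7e-09) at 24 hours, and SC5D by 0.56 (adjusted p = 3.7e-06) and 0.64 (adjusted p = 6.6e-07). FA2H, which hydroxylates the fatty acids of sphingolipids, fell by 1.00 (adjusted p = 0.00021) at 12 hours. It was dim, with means of 4.18 in HFM and 5.18 in GM at that time. DEGS1, the desaturase of ceramide synthesis, fell by 0.35 (adjusted p = 0.0013) at 24 hours, but not with centred arrays (-0.17, adjusted p = 0.13).

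Of the genes of saturated fatty acid synthesis and activation, 2 of 11 rose and 4 fell at 12 hours, or 2 rose and 2 fell with centred arrays. At 24 hours 1 rose and 2 fell, or 5 rose and 2 fell with centred arrays. The share called over all genes was 61.9% at 12 hours and 58.1% at 24 hours. FASN, which makes palmitate, stood at 0.02 (adjusted p = 0.79) at 12 hours and fell by 0.66 (adjusted p = 1.3e-05) at 24 hours, when OXSM, an enzyme of mitochondrial fatty acid synthesis, fell by 0.72 (adjusted p = 1.2e-06). ME1, which yields NADPH, rose by 0.43 (adjusted p = 6.1e-06) and ACACA, which makes malonyl-CoA, by 0.35 (adjusted p = 0.0016) at 12 hours, and ACSL1, an acyl-CoA synthetase, rose by 0.23 (adjusted p = 0.0089) at 24 hours. The median change of the list was 0.02 at 12 and 0.01 at 24 hours, beside -0.07 and -0.08 over all genes.

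Of lipogenic transcription control genes, 6 of 18 rose and 5 fell at 12 hours, and 8 rose and 5 fell at 24 hours, beside 61.9% and 58.1% of all genes called in either direction. With centred arrays 6 rose and 6 fell at 12 hours, and 8 rose and 4 fell at 24 hours. INSIG1, which retains the SREBP escort in the endoplasmic reticulum, rose by 1.60 (adjusted p = 1.9e-07) at 12 hours and 2.63 (adjusted p = 1.3e-09) at 24 hours. NFYB, a subunit of the CCAAT-binding NF-Y, rose by 0.85 (adjusted p = 3.8e-07) at 12 hours and 0.50 (adjusted p = 1.5e-05) at 24 hours. The other subunits, named here after their values were seen, differed: NFYA rose by 0.35 at both times (adjusted p = 0.0012 at 12 and 0.00096 at 24 hours), while NFYC stood at -0.12 (adjusted p = 0.25) at 12 hours and fell by 0.60 (adjusted p = 9.8e-05) at 24 hours. At 24 hours PPARA, a fatty acid receptor, fell by 1.43 (adjusted p = 9.7e-09) and RXRA, its partner, by 1.24 (adjusted p = 3.3e-06). Their means in HFM were then 4.32 and 4.93, not far above the filter of log2 4, against 5.75 and 6.17 in GM. At such levels the size of a fall is less certain. SREBF1, which encodes the SREBP of fatty acid genes, stood at -0.13 (adjusted p = 0.37) at 12 and 0.00 (adjusted p = 0.98) at 24 hours. NR1H3 and MLXIPL, which encode an LXR and ChREBP, are also named after their values were seen. NR1H3 fell by 0.67 (adjusted p = 0.00046) at 12 and 1.18 (adjusted p = 3.6e-06) at 24 hours, when its mean was 4.50 in HFM and 5.68 in GM. MLXIPL stood at 0.02 (adjusted p = 0.88) and -0.01 (adjusted p = 0.97), with dim group means of 4.49 to 4.62.

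Ceramide synthases and phospholipid acyltransferases, which use the products of elongases and desaturases, were called 2 up and 5 down of 10 at 12 hours and 3 up and 2 down at 24 hours, against 61.9% and 58.1% of all genes called at these times. With centred arrays limma called 2 up and 6 down at 12 hours, and 7 up and 0 down at 24 hours (0 down at an unadjusted p under 0.05). CERS4 fell by 0.63 (adjusted p = 0.00059) and CERS6 rose by 0.61 (adjusted p = 1.0e-05) at 12 hours. CERS4 was dim, with means of 4.65 in HFM and 5.27 in GM at that time. At 24 hours LPCAT4 rose by 0.65 (adjusted p = 3.1e-05), MBOAT7, which places arachidonate in phosphatidylinositol, by 0.43 (adjusted p = 4.2e-05), and LPCAT2, at -0.34 (adjusted p = 0.0017), was called lower, though not with centred arrays (-0.17, adjusted p = 0.076).

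**Figure D4:**
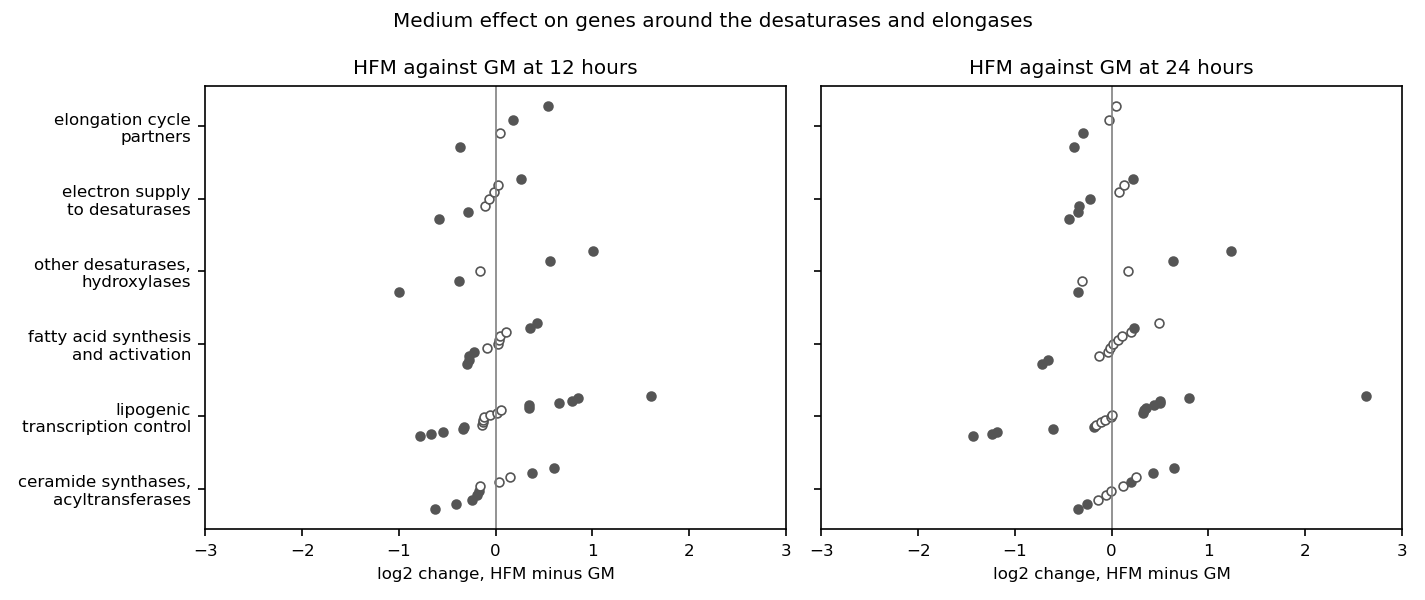
Change in log2 level, HFM minus GM, of each tested gene in 6 lists around the desaturases and elongases at 12 hours (left) and 24 hours (right); filled points passed the test in limma and open points did not. INSIG1 lies farthest to the right at both times, at 1.60 and 2.63, and every list has points on both sides of 0 at 12 hours.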

How the data were processed

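Affymetrix arrays of Sk-hep1 cells were measured in 4 groups of 3. The deposited values are log2 levels per probe set. The authors used GCRMA for them, as the submitters' processing notes say, and the sources used here give neither its version nor any filter. GCRMA scales arrays to each other and lifts or shrinks dim probe sets, which limits small changes and low levels. The median per array lay between 4.05 and 4.09, and the number of arrays limits the precision.

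The platform annotation gives 1 gene symbol to 41097 of 54675 probe sets, several to 1801 and none to 11777. Entrez identifiers of 41043 matched the RefSeq table and 0 symbols needed updating. For each of 19775 genes the brightest probe set by mean was kept. Of these genes, 13130 reached log2 4 on 3 arrays or more, and they entered 1 limma fit of all 12 arrays with 4 group means (limma 3.58.1, R 4.3.3, with eBayes) with Benjamini-Hochberg adjustment. The script was tested on simulated data. Members and gene lists were chosen with earlier results of these data known. All members are named. Of each list up to 3 called genes with the largest change at 24 hours and up to 2 at 12 hours are named. SREBF1, FASN, TECR and HSD17B12 are named whatever their values. CYB5A, CYB5R3, NR1H3, MLXIPL, NFYA and NFYC were named after their values were seen. Promoter windows are from RefSeq. Replicate numbers were not taken to pair the arrays: the deviations of same-numbered arrays from their group means correlated at r over 0.1 in 7 of 18 pairs (-0.17 to 0.42). Alternatives were another filter or none, other ways to choose probe sets, other scalings, a robust trended eBayes, fewer groups, a replicate block, a hybridisation control term and leaving out each array. For the list genes and single probe sets, the other scalings were added after seeing the data. Centring used the median of an array over the tested genes, or over the tested probe sets where single probe sets were fitted. Python 3.11.15 and matplotlib 3.10.9 made the figures.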

Additional observations from a re-analysis of the deposited data

Results flagged for a closer look

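The effect of HFM against GM differed between 24 and 12 hours for 4 of the 7 tested members by limma's interaction test, a test that called 52.8% of all genes. FADS3 differed by 1.07 (adjusted p = 9.3e-06), with an effect of 0.73 at 24 hours and -0.34 at 12 hours, and its second probe set differed by 0.92 (adjusted p = 0.00016). SCD5 differed by -0.56 (adjusted p = 5.5e-05), with an effect of -0.30 at 24 hours and 0.25 at 12 hours, but its probe set 224018_s_at differed by 0.59 (adjusted p = 0.00044). ELOVL7 differed by -0.36 (adjusted p = 0.0013), with a smaller rise at 24 hours. ELOVL5 differed by -0.22 (adjusted p = 0.018), and its probe set 215082_at by 0.84 (adjusted p = 0.00084) in the other direction. The 3′ to 5′ difference of ACTB was 1.58 ± 0.06 (SD, n = 3) in HFM and 1.07 ± 0.05 in GM at 24 hours, and 0.84 ± 0.13 in HFM and 0.89 ± 0.03 in GM at 12 hours. Its part in these differences was not tested.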

How the results depend on the processing

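Across 11 other settings, 348 of 373 values of single members kept their direction and side of the threshold, 13 lost their call, 5 gained one and 7 reversed; a reversal counts where either value was called. Without 1 array, 416 of 420 did so, and the 4 exceptions are the ELOVL7 change with time in HFM given above. Many of these settings keep the group means of the main probe sets. They are other filters, leaving out _x_at probe sets, separate probe set tests, robust eBayes, fewer groups and the replicate block. Those settings, and leaving out an array of a group not compared, could move a call but not a direction. The counts therefore say little about how stable the directions are. With probe sets averaged per gene, the count of members higher in HFM at 12 hours was 3 and lower at 24 hours 0 in limma (0 at an unadjusted p under 0.05), the interaction gave 3 higher and 1 lower, GM gave 2 higher with time and HFM 0 lower (0 at an unadjusted p under 0.05). That setting reversed SCD5 to 0.20 at 24 hours, 0.16 in the interaction and 0.18 with time in HFM, and ELOVL5 to 0.28 at 24 hours, 0.20 in the interaction and -0.012 with time in GM. The average gives dim and bright probe sets of a gene the same weight. The cause was not tested beyond the disagreement of their probe sets. Centring each array gave 0 members lower at 24 hours in limma (1 at an unadjusted p under 0.05) and 3 higher and 1 lower in the interaction, where ELOVL6 reversed to 0.17. Centring moved the median change of all genes at 24 hours to 0.10, against -0.08, and the split of calls to 4852 higher and 3434 lower, against 2700 and 4923. Repeated quantile normalisation gave 2 higher in the interaction, and 3909 higher and 4056 lower over all genes at 24 hours. With the term for the hybridisation control class, which leaves HFM at 12 hours tied to GM through 1 array, limma gave 0 lower at 12 hours and 0 lower with time in GM (0 and 0 at an unadjusted p under 0.05). Of the list genes and single probe sets, whose scalings were chosen after seeing the data, 5 reversed at 24 hours with centred arrays, none of them called before: HSD17B12 to 0.15, ACACA to 0.17, ME1 to 0.15, CERS6 to 0.13 and LPCAT1 to 0.17. The replicate block changed no member's call, with 5 higher and 1 lower at 12 hours and 4 higher and 1 lower at 24 hours. FADS2, at log2 4.71 to 5.36, was left out by the filter of log2 6, and dim probe sets such as it limit what can be seen.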
